A study of Mus musculus with 6 samples.

Results

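Guanylate-binding proteins (GBPs) and immunity-related GTPases (IRGs) were followed in sorted tdTomato+ cells that the study labels as osteoblast (OB) lineage. The genes were chosen by symbol from a written list of GTPases that interferon-gamma (IFN-γ) induces, and 9 of the 17469 genes with values were members. They comprised 5 GBPs (Gbp2, Gbp3, Gbp5, Gbp7 and Gbp9) and 4 IRGs (Irgm1, Irgm2, Igtp and Iigp1). RNA-seq had been run on cells sorted for tdTomato from cultured bone marrow stromal cells (BMSCs) of 6-month-old mice, with no treatment. Both genotypes carried OCN-Cre, in which the osteocalcin promoter drives Cre recombinase, and Ai9, a reporter that turns on tdTomato once Cre has acted. The 3 control libraries were from OCN-Cre;Ai9 mice, and the 3 TgAPPsweOCN;Ai9 libraries were from mice that also carried LSL-hAPPswe, human APP with the Swedish mutation behind a stop cassette that Cre removes. The comparison asks how the transcripts of these cells differ when they can express APPswe.

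GBPs and IRGs are large GTPases that cells make after interferon signalling, and they are best known for restricting bacteria and protozoa inside macrophages. IFN-γ binds a receptor of the Ifngr1 and Ifngr2 subunits, and its signal runs through Jak1 and Jak2 to GAS elements in target promoters. Type I interferons act through Ifnar1 and Ifnar2 on a complex with Stat2 and Irf9 that binds ISRE elements, which Irf1 can also bind. GBPs assemble on the membranes of vacuoles and bacteria. Among the IRGs, Irgm1, Irgm2 and Igtp sit on the cell's own membranes and hold effector IRGs such as Iigp1 in an inactive state.

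Estimated counts summed to 19340810 to 19801060 in the control libraries and to 21677461 to 22037840 in the TgAPPsweOCN;Ai9 libraries, so that a floor of 3 counts was 0.136 to 0.155 CPM (counts scaled to library totals), for counting error only. App, the mouse counterpart of the transgene, was 1.37-fold higher in TgAPPsweOCN;Ai9 (log2 fold change 0.45 ± 0.051, SE, edgeR adjusted p = 7.87e-05). Whether reads of the human transgene were assigned to App was not tested. Myeloid rather than osteoblast markers dominated the sorted cells. The 12 myeloid markers, among them Lyz2, Csf1r and Adgre1, summed to 17210 to 17938 FPKM (read fragments of a gene relative to the length of the gene and to the total of the library) in control and 14335 to 18198 FPKM in TgAPPsweOCN;Ai9. The 13 stromal and osteoblast markers summed to 144 to 172 FPKM and 114 to 198 FPKM, and Bglap, which encodes osteocalcin, lay at or below 1.25 FPKM in all 6 libraries. Markers of T cells summed to 3.83 to 4.49 FPKM and 1.07 to 2.46 FPKM, mostly from Cd4 and over 5 of 6 listed genes, while Cd3d and Cd3e reached at most 0.08 FPKM. NK cell markers summed to at most 0.19 FPKM. Of the 12 myeloid markers, 4 rose and 3 fell, and 2 stromal markers (Dcn and Lum), the B cell marker Cd79b and the endothelial marker Pecam1 rose as well, while the T cell list held 1 fall (Cd4). The part of these markers in the GTPase results was not tested. In bulk RNA, a change in the share of a cell type and a change in RNA per cell cannot be told apart.

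In GRCm38, the members lie in groups with their relatives. On chromosome 3, a cluster of 5 GBP genes spans 141.1 kb in the order Gbp5 (142496934 to 142522344), Gbp7 (142530336 to 142550151), Gbp3 (142560016 to 142573213), Gbp2b and Gbp2 (142620663 to 142638008), all on the plus strand. Gbp9 (105076464 to 105110357, minus strand) lies on chromosome 5 in a second cluster of 5, between Gbp8 at 22.9 kb and Gbp4 at 5.41 kb. On chromosome 11, Igtp (58199556 to 58207592) and Irgm2 (58214977 to 58222783) are neighbours 7.38 kb apart on the plus strand, and Irgm1 (48865245 to 48871420, minus strand) is distant from both. Gbp9 shares exon bases with an annotated Gbp8 transcript, Igtp with an Irgm2 transcript, Gbp7 with the pseudogene Gm43802 and Gbp2 with the antisense miRNA gene Mir6381, so reads there can be assigned to either gene.

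The promoter bases that carry interferon motifs are shown because interferon signals reach GBP and IRG genes through such elements. RefSeq promoter windows (GRCm38.p6, 250 bases before to 50 bases after the start of a gene) matched 7 members, and Gbp9 and Iigp1 had no match. Capitals mark, on the strand of the gene, every match within the printed stretch to a GAS (TTCNNNGAA), an ISRE (GAAA, any 2 bases, GAAA) or an NF-kB motif (GGG, any 2 bases, TTTCC), each searched on both strands, and matches of the same motif may overlap.
Gbp2 (chr3:142620594-142620623, plus strand): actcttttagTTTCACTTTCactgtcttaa
Gbp3 (chr3:142559934-142560015, plus strand): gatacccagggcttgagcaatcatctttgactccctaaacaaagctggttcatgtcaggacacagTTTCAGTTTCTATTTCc
Gbp5 (chr3:142496764-142496899, plus strand): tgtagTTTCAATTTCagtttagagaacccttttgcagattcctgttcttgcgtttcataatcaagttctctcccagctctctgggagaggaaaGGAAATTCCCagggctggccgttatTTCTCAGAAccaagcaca
Gbp7 (chr3:142530226-142530335, plus strand): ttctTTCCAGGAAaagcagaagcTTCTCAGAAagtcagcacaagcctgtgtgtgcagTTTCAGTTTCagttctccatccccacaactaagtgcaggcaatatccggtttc
Irgm1 (chr11:48871428-48871457, minus strand): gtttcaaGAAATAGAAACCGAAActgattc
Irgm2 (chr11:58214867-58214976, plus strand): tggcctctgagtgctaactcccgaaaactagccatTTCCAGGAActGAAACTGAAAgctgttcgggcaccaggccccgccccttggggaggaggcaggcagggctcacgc
Igtp (chr11:58199446-58199555, plus strand): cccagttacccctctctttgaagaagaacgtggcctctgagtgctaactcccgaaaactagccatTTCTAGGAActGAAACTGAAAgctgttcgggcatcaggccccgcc

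All 7 members with a window held an ISRE match, which was present in 3.44% of all 32851 windows, in 4.02% of the 10117 tested genes with a window and in 10.1% of the 873 up-regulated genes among these. Counted by window, 7 of 8 member windows held an ISRE match, as a further Gbp3 window held no motif. A GAS match was found for Gbp5, Gbp7, Irgm2 and Igtp, against 8.30% of all windows, and the single NF-kB match was in Gbp5, against 1.63%. The ISRE matches of the chromosome 3 genes Gbp2, Gbp3, Gbp5 and Gbp7 read on the opposite strand, and those of Irgm1, Irgm2 and Igtp on the strand of the gene. Gbp3 and Irgm1 each held 2 overlapping ISRE matches. In Igtp and Irgm2 the GAS began 11 bases before the ISRE, as it did in the related genes Tgtp1 and Tgtp2. Lined up on the ISRE, the printed Igtp and Irgm2 stretches were identical at 78 of the 80 bases they share, and the upstream windows at 134 of 220, although the matches lie 34 bases before the start of Igtp and 64 bases before that of Irgm2. These matches describe the letters of the windows, and no binding was measured here.

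Of the 9 GTPase genes, 8 rose in TgAPPsweOCN;Ai9 cells and none fell. A gene counted as up-regulated at a log2 fold change of 1 or more with an adjusted p of at most 0.05 in edgeR's quasi-likelihood test over 12701 genes, and 8.9% of those genes met it, with 9.2% meeting the same rule downwards (1130 and 1169 genes, but 846 and 1732 with scaling by library size). The median log2 fold change of the 9 was 2.33, beside −0.02 for all tested genes. Gbp2 had the largest difference of the members, 10-fold, and Gbp9 the smallest, 1.34-fold. In all 8 genes that rose, every TgAPPsweOCN;Ai9 library lay above every control library in FPKM, as in 24.0% of tested genes, while in 48.3% of tested genes every TgAPPsweOCN;Ai9 library lay below. With 3 libraries against 3, the two-sided exact permutation test cannot give less than p = 0.1, which each of the 8 reached. The labels do not say that libraries came from separate animals or cultures, so all p-values measure only the spread between these libraries. The 8 genes kept their call in all 16 alternative fits.

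**Figure D1:**
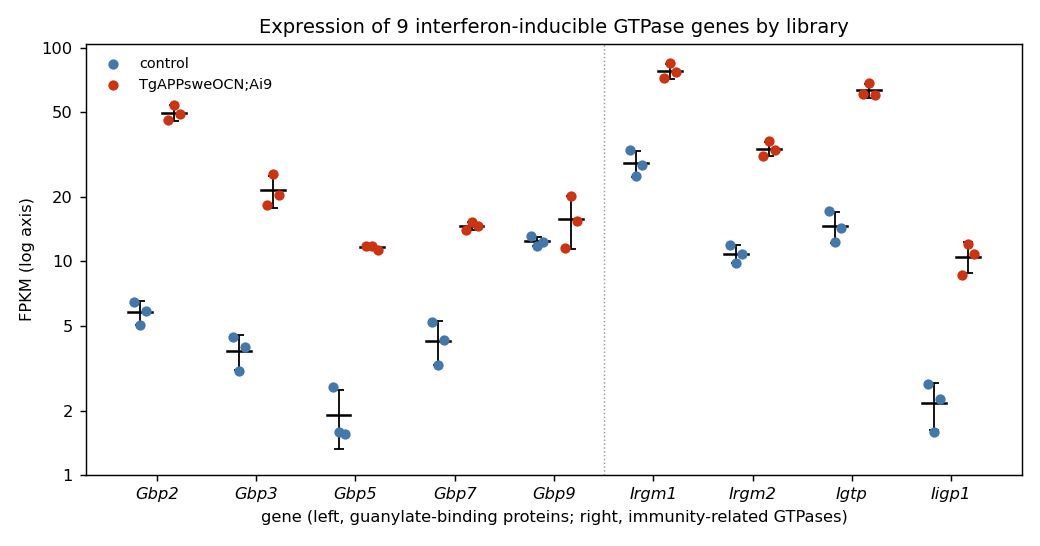
FPKM on a log axis of the 9 GTPase genes in 3 control and 3 TgAPPsweOCN;Ai9 libraries. Points are libraries, in the order of their numbers, and bars are the mean ± SD; the genotypes are apart for each gene except Gbp9, whose first TgAPPsweOCN;Ai9 library (11.6 FPKM) lies below all 3 controls.

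Gbp2, which carries a lipid anchor and coats vacuoles of pathogens, was at 6.45, 5.01 and 5.86 FPKM in control libraries 1 to 3 and at 45.9, 54.3 and 49.2 FPKM in TgAPPsweOCN;Ai9 libraries 1 to 3. The lowest transgenic value stood far above the highest control value. Its log2 fold change was 3.32 ± 0.10 (SE, adjusted p = 7.68e-08). The mean rose from 5.77 ± 0.724 to 49.8 ± 4.24 FPKM (SD, n = 3 each).

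Gbp5, the second lipid-anchored GBP of the chromosome 3 cluster and a gene linked to inflammasome assembly, was at 2.59, 1.59 and 1.56 FPKM in control and 11.9, 11.8 and 11.4 FPKM in TgAPPsweOCN;Ai9. Control 1 stood above the other controls, whereas the transgenic libraries were close to each other, with a coefficient of variation of 2.42% against 30.6% in control. The log2 fold change of Gbp5 was 2.83 ± 0.17 (SE, adjusted p = 2.14e-06).

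Gbp3, which is also recruited to vacuoles, was at 4.43, 3.05 and 3.95 FPKM in control and 18.4, 25.6 and 20.5 FPKM in TgAPPsweOCN;Ai9, the highest being library 2. It rose 6.62-fold (log2 fold change 2.73 ± 0.15, SE, adjusted p = 1.64e-06). Gbp7, described as a bridge between vacuoles, autophagy proteins and the NADPH oxidase, was at 5.22, 3.26 and 4.27 FPKM in control and 14.04, 15.4 and 14.6 FPKM in TgAPPsweOCN;Ai9. Its rise (log2 fold change 2.0 ± 0.14, SE, adjusted p = 5.81e-06) was the smallest of the 4 members in the cluster. Of the remaining gene of the cluster, Gbp2b, no library held more than 2 counts.

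The 3 regulatory IRGs were among the more abundant members. Irgm1, which is needed for phagosome maturation and for the upkeep of blood stem cells, was at 33.2, 25.2 and 28.2 FPKM in control and 72.1, 84.8 and 77.1 FPKM in TgAPPsweOCN;Ai9. It rose 3.15-fold (log2 fold change 1.66 ± 0.10, SE, adjusted p = 2.77e-06) from the highest level of any member in either genotype. Igtp, found on the endoplasmic reticulum and lipid droplets, was at 17.2, 12.3 and 14.3 FPKM in control and 61.0, 68.9 and 60.1 FPKM in TgAPPsweOCN;Ai9. The rise of Igtp was 5.02-fold (log2 fold change 2.33 ± 0.12, SE, adjusted p = 8.47e-07). Irgm2, a Golgi-associated regulator next to Igtp, was at 11.9, 9.87 and 10.8 FPKM in control and 31.3, 36.5 and 33.3 FPKM in TgAPPsweOCN;Ai9, with a log2 fold change of 1.85 ± 0.084 (SE, adjusted p = 4.76e-07). As the annotation gives Igtp and Irgm2 common exon bases, their reads were also summed, and the sum had a log2 fold change of 2.08 ± 0.097 (SE, adjusted p = 5.60e-07).

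Iigp1, the effector IRG that loads onto the membrane of pathogen vacuoles, was at 2.65, 1.58 and 2.26 FPKM in control and 8.67, 12.1 and 10.8 FPKM in TgAPPsweOCN;Ai9. It rose 5.65-fold (log2 fold change 2.5 ± 0.18, SE, adjusted p = 6.87e-06) and remained the least abundant IRG member in both genotypes. The 3 regulators thus stood above the effector in every library. Iigp1 lies on chromosome 18 in a group of 3 IRG genes over 180.6 kb, with Gm4951 and F830016B08Rik.

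Gbp9 differed from the other members in its values. It was at 13.1, 11.9 and 12.3 FPKM in control and at 11.6, 20.3 and 15.5 FPKM in TgAPPsweOCN;Ai9. The transgenic libraries spread around the controls, with library 1 below all of them and libraries 2 and 3 above, and the means of 12.4 ± 0.636 and 15.8 ± 4.35 FPKM did not separate (two-sided exact permutation test, p = 0.4). The estimated counts, 1333, 1156 and 1241 in control and 1274, 1909 and 1625 in TgAPPsweOCN;Ai9, gave a log2 fold change of 0.42 ± 0.13 (SE, adjusted p = 0.0186), short of the fold threshold, and 32.5% of tested genes were higher by adjusted p alone. This call was lost with the reads of Gbp8 and Gbp9 summed (0.24, adjusted p = 0.131), with scaling by library size, in all 3 limma fits on FPKM and without control 2, control 3 or TgAPPsweOCN;Ai9 3, with adjusted p values over the 16 alternative fits from 0.000836 to 0.233. The gene length that counts and FPKM jointly imply was between 4300 and 5229 bases for Gbp9, lowest in TgAPPsweOCN;Ai9 2, a 1.22-fold range at or above that of 98.3% of 9949 genes. The other members ranged at most 1.03-fold, so the FPKM and the counts of Gbp9 are less alike than theirs.

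The other genes of the chromosome 5 cluster were examined next. Gbp8, the neighbour of Gbp9, fell from 4.96, 4.23 and 4.36 FPKM to 1.18, 1.88 and 1.52 FPKM (log2 fold change −1.44 ± 0.17, SE, adjusted p = 0.000108). Gbp4, on the other side of Gbp9, rose from 0.29, 0.26 and 0.32 FPKM to 2.53, 3.67 and 3.55 FPKM (3.64 ± 0.20, adjusted p = 1.53e-06). Gbp8 and Gbp4 thus moved in opposite directions on either side of Gbp9. Gbp6 rose from 1.37, 0.67 and 1.14 FPKM to 13.8, 17.6 and 15.6 FPKM (4.10 ± 0.20, adjusted p = 6.86e-07). Gbp10 had 3 counts over the control libraries, all in control 1, and 130 over the TgAPPsweOCN;Ai9 libraries, a ratio of 38.8 in CPM (exact 95% interval for counting error 13 to 190.7). The fitted log2 fold change of Gbp10 was 5.33, with 8.46 without control 1 and 4.79 without control 2 or control 3. Of the 4 tested GBP genes outside the list, 3 therefore rose and 1 fell, with a median log2 fold change of 3.87. Gbp11 was not analysed here. As these are near copies, the authors' counting could divide reads between them.

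**Figure D2:**
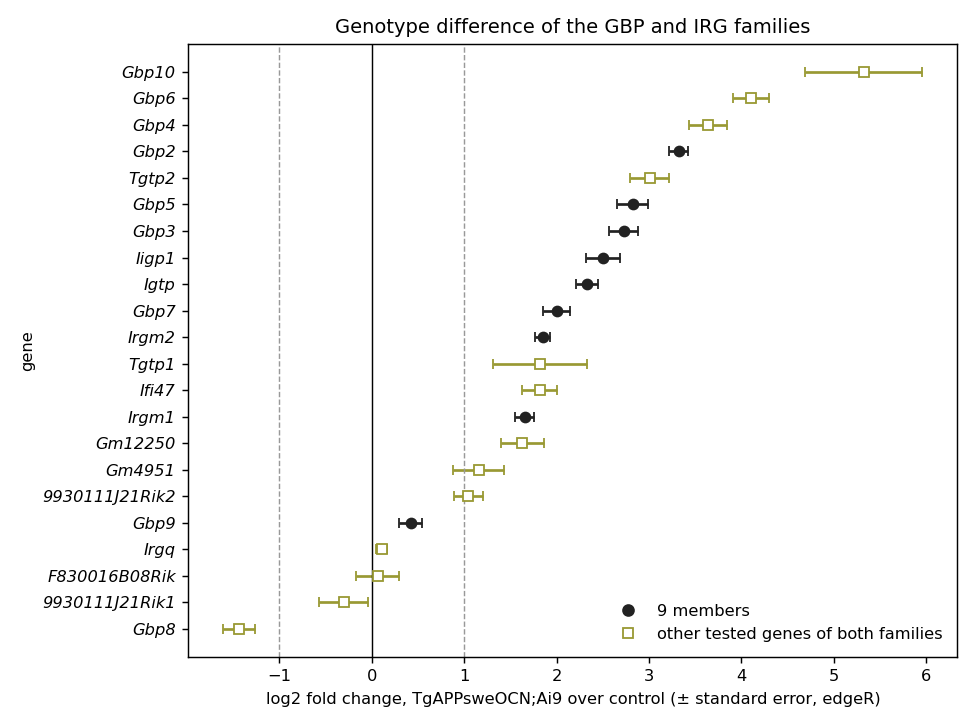
Log2 fold changes (TgAPPsweOCN;Ai9 over control, ± SE derived from edgeR's F statistic) of the tested GBP and IRG genes, with the 9 members filled and dashed lines at 1 and −1. Gbp10 is highest at 5.33 on 3 control counts, Gbp8 is lowest at −1.44, and Gbp9 (0.42) is the only member between the dashed lines.

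The make-up of GBP transcripts differed between the genotypes. The summed FPKM of 10 GBP genes was 38.5, 29.9 and 33.8 in control and 119.9, 151.1 and 132.5 in TgAPPsweOCN;Ai9, a 3.95-fold ratio of the means. Gbp9 was the most abundant GBP in control, at 34%, 39.6% and 36.3% of the sum, and made up 9.67%, 13.4% and 11.7% in TgAPPsweOCN;Ai9. Gbp2 held 16.7% to 17.4% of the sum in control and 35.9% to 38.3% in TgAPPsweOCN;Ai9, where it was the most abundant GBP. The shares of Gbp2, Gbp3, Gbp4, Gbp5, Gbp6 and Gbp10 were higher in every TgAPPsweOCN;Ai9 library than in every control library, those of Gbp8 and Gbp9 lower, and those of Gbp7 overlapped (12.4% ± 1.35 and 11.0% ± 0.774, SD, n = 3). Since shares of a sum are tied to each other, each such separation is a description (two-sided exact permutation p = 0.1, the smallest possible).

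**Figure D3:**
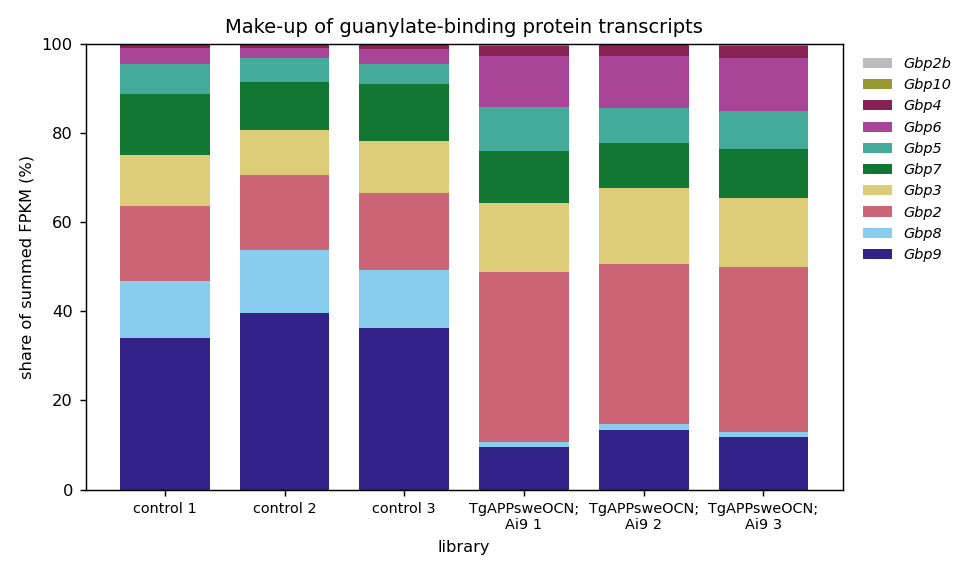
Share in percent of each of 10 GBP genes in the summed FPKM of GBP genes, with 1 bar for each library. Gbp9, at the foot of the bars, holds 34% to 39.6% in the control libraries, and Gbp2 holds the largest share, 35.9% to 38.3%, in the TgAPPsweOCN;Ai9 libraries.

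In the order of levels, Irgm1 and Igtp stood first and second in both genotypes. In control they were followed by Gbp9, Irgm2, Gbp2, Gbp7, Gbp3, Iigp1 and Gbp5, with overlapping libraries between Igtp and Gbp9, Gbp9 and Irgm2, Gbp2 and Gbp7, Gbp7 and Gbp3, and Iigp1 and Gbp5. In TgAPPsweOCN;Ai9 the order after Igtp was Gbp2, Irgm2, Gbp3, Gbp9, Gbp7, Gbp5 and Iigp1, with overlap between Gbp3 and Gbp9, Gbp9 and Gbp7, and Gbp5 and Iigp1. Gbp2 moved from rank 5 to rank 3 and Gbp9 from rank 3 to rank 6.

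Within a genotype, the same libraries were highest and lowest for most members. The share of all tested genes with that order was not counted. Control 1 had the highest FPKM of the control libraries for 9 of 9 members, and control 2 the lowest for 8. TgAPPsweOCN;Ai9 2 was the highest transgenic library for 8 members and TgAPPsweOCN;Ai9 1 the lowest for 7. The median deviation of the members from their genotype mean was 0.24 on the log2 scale in control 1 and −0.22 in control 2, beside 0.10 in TgAPPsweOCN;Ai9 2. These spreads are small beside the median genotype difference of 2.33. Replicate numbers carry no order, and nothing in the labels marks a shared batch.

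Fractional counts were present for 7 of the 9 members. A fractional value shows that the counting divided reads between genes or transcripts, without saying how many reads were divided. Over all genes, 81.7% held whole counts in all 6 libraries and 9.57% held fractional counts in all 6, at a tolerance of 0.001. Gbp2 and Gbp5 were whole in every library. Igtp and Irgm2 were fractional in all 6 libraries, Gbp9 in 5, Iigp1 in 4, Gbp3 and Gbp7 in 2 and Irgm1 in 1. In TgAPPsweOCN;Ai9 1 the fractions of Gbp3 (1042.57) and Gbp7 (1716.43) add up to a whole number, and so do those of Igtp (2630.94) and Irgm2 (2382.06). The distance of a member's count to the nearest whole number was at most 0.1% of the count, in Iigp1. Rounding down in place of to the nearest whole number left all 8 calls in place.

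The other IRG genes were examined in the same way. Of the 9 tested, 6 rose, none fell and 3 did not pass the test, with a median log2 fold change of 1.16. Tgtp2, an effector IRG, rose from 4.16, 2.02 and 3.12 FPKM to 18.4, 24.2 and 21.8 FPKM (log2 fold change 3.01 ± 0.21, SE, adjusted p = 5.23e-06). Ifi47, a further effector, rose from 20.4, 11.6 and 15.0 FPKM to 41.4, 54.3 and 46.4 FPKM (1.82 ± 0.19, adjusted p = 4.46e-05). Tgtp1, near-identical to Tgtp2 and fractional in all 6 libraries, had a log2 fold change of 1.82 on at most 0.6 FPKM. This value of Tgtp1 was 2.65 without control 1, its call was lost without control 3 (adjusted p = 0.0511), and it was 0.39 in limma without a filter. Gm12250, Gm4951 and 9930111J21Rik2 rose by 1.63, 1.16 and 1.05 on the log2 scale. Gm4951 met the fold threshold in 12 of 16 alternative fits (0.87 without control 2) and 9930111J21Rik2 in 10 of 16 (0.90 without control 1 and 0.92 without TgAPPsweOCN;Ai9 2). 9930111J21Rik1 had a log2 fold change of −0.31 (adjusted p = 0.337) with libraries from 8.86 to 21.5 FPKM in TgAPPsweOCN;Ai9 and from 18.3 to 25.8 FPKM in control. This value of 9930111J21Rik1 was −0.60 (adjusted p = 0.0429) without TgAPPsweOCN;Ai9 2 and −0.034 without TgAPPsweOCN;Ai9 1. F830016B08Rik, from the group of Iigp1, and Irgq had values of 0.06 and 0.11 (adjusted p = 0.830 and 0.151), which turned negative under scaling by library size.

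The 2 interferon genes examined, Ifng and Ifnb1, were close to the floor. Ifng, which encodes IFN-γ, had 0 counts in 5 libraries and 4 counts in TgAPPsweOCN;Ai9 1. Ifnb1, which encodes IFN-β, had 0 counts in every control library and 8, 8 and 7 counts in TgAPPsweOCN;Ai9. Il12b, a subunit of the cytokines IL-12 and IL-23, had 1 count over the controls and 806, 111 and 428 counts in the TgAPPsweOCN;Ai9 libraries. The ratio of Il12b in CPM was 1205, with an exact 95% interval for counting error of 215.9 to 4.76e+04, which leaves out the spread between libraries. Its fitted log2 fold change was 9.99, and 9.25 without TgAPPsweOCN;Ai9 1 and 11.84 without control 3. The 4 interferon receptor subunits had high levels. Ifngr1, the ligand-binding subunit, fell from 131, 100.1 and 112 FPKM to 44.2, 49.5 and 44.2 FPKM (log2 fold change −1.10 ± 0.099, SE, adjusted p = 2.15e-05), with −0.996 when control 1 was left out. Ifngr2 lay between 138 and 161 FPKM in all 6 libraries, with a log2 fold change of 0.30 (adjusted p = 0.00642) that did not pass under library-size scaling (0.09, adjusted p = 0.266). Ifnar1 and Ifnar2 had lower values, by −0.68 and −0.79 on the log2 scale (adjusted p = 7.07e-05 and 2.92e-06), short of the fold threshold, which Ifnar2 met with scaling by library size (−1.01). Of the 8 tested ligand and receptor genes, 1 rose and 1 fell, and their median was −0.08.

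Among 13 JAK, STAT and IRF genes, 4 rose and none fell, and a further 4 were higher and 4 lower by adjusted p alone, with a median of 0.25. By adjusted p alone, 31.5% of tested genes were lower. Irf7, a factor of type I interferon genes, rose by 3.50 ± 0.28 on the log2 scale (SE, adjusted p = 1.13e-05), Stat2 by 1.70 ± 0.12, Jak2 by 1.42 ± 0.13 and Batf2 by 1.16 ± 0.11. Batf2 met the fold threshold in 12 of 16 alternative fits, with a lowest value of 0.85. Irf1, a factor needed for full induction of many GBP genes, went the other way, from 38.7, 35.1 and 34.7 FPKM to 22.3, 22.5 and 22.1 FPKM (−0.48 ± 0.064, adjusted p = 0.000215). Irf2, Irf3 and Irf8 also had lower values, of −0.83, −0.38 and −0.47, none of which met the fold threshold, although Irf2 did with scaling by library size (−1.05) and in limma with a pseudocount of 0.1 (−1.03). Irf9 was higher by 0.48 (adjusted p = 0.000193).

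Of 8 inhibitors of the interferon signal, 3 rose and none fell, with a median of 0.63. Socs1, an inhibitor of JAK kinases, rose from 2.37, 2.06 and 2.22 FPKM to 13.9, 13.6 and 13.96 FPKM (2.85 ± 0.11, adjusted p = 2.05e-07). Usp18, which blocks the type I interferon receptor, rose by 4.37 ± 0.19 and Socs3, an inhibitor of STAT3-activating receptors, by 1.68 ± 0.092. Among other IFN-γ induced genes, 12 of 15 tested rose and none fell, with a median of 1.5. The T cell chemokine genes Cxcl9 and Cxcl10 rose by 4.18 ± 0.32 and 4.06 ± 0.33. Cd274, which encodes PD-L1, rose by 4.67 ± 0.084, Nos2, the inducible nitric oxide synthase, by 5.02 ± 0.32 and Acod1, the enzyme that makes itaconate, by 6.46 ± 0.14. The MHC class II genes, which IFN-γ also induces through Ciita, moved opposite to the GTPases. Of 7 tested, 6 fell and none rose, with a median of −2.55. Ciita fell from 2.65, 3.60 and 3.19 FPKM to 0.26, 0.19 and 0.32 FPKM (−3.36 ± 0.19, adjusted p = 1.58e-06) and H2-Eb1 by 3.50 on the log2 scale.

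**Figure D4:**
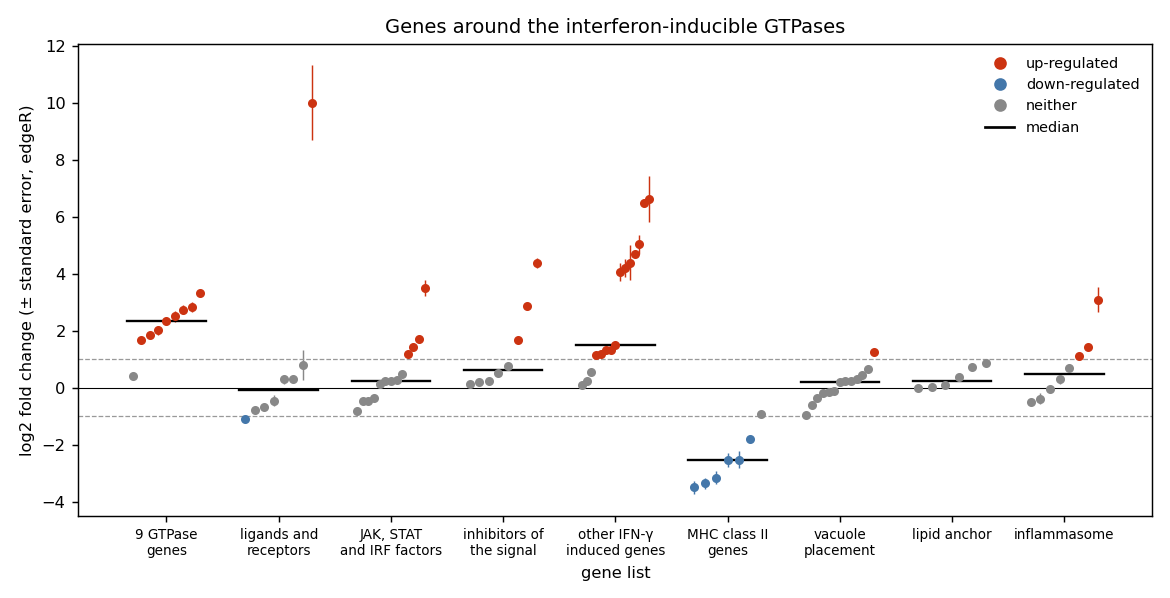
Log2 fold changes (TgAPPsweOCN;Ai9 over control, ± SE derived from edgeR's F statistic) of the tested genes in the 9-gene GTPase list and in 8 lists around it, with 1 point for each gene and a black line at the median. The GTPase list has a median of 2.33 and the MHC class II list one of −2.55, and Il12b is the point near 10 among ligands and receptors.

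Genes that act with the GTPases were also counted. Of 13 genes that place the GTPases on vacuoles, such as the Atg5 conjugation machinery, 1 rose and none fell, and a further 6 were higher and 4 lower by adjusted p alone, with a median of 0.18. The riser was Trim21, a ubiquitin ligase, by 1.24 ± 0.056 (adjusted p = 4.56e-07), which met the fold threshold in 14 of 16 alternative fits (lowest value 0.97). None of 6 genes for the lipid anchor of Gbp2 and Gbp5 met the fold threshold. Pggt1b, the geranylgeranyl transferase subunit, came nearest at 0.86 ± 0.082 (adjusted p = 3.04e-05). Of 8 inflammasome genes, 3 rose and none fell, with a median of 0.49. Casp4, the mouse caspase-11 that senses lipopolysaccharide released with the help of GBPs, rose from 15.9, 14.6 and 15.9 FPKM to 34.9, 37.0 and 34.7 FPKM (1.41 ± 0.069, adjusted p = 7.43e-07). Casp1 rose by 1.11 ± 0.070 and Il1b by 3.08 ± 0.43, and Casp1 met the fold threshold in 12 of 16 alternative fits, with a lowest value of 0.88. The counts and FPKM of Il1b were unlike in TgAPPsweOCN;Ai9 libraries 1 to 3. Its counts were 5001, 1319 and 3053 and its FPKM 175.7, 146.4 and 108.8. Il1b met the fold threshold in all 16 alternative fits.

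Outside these lists, the profiles over the 6 libraries nearest to the mean profile of the members were those of Lgals9, Oas1a, Ddx58, Adk and Rgl1. Their Euclidean distances on the log2 scale were 0.147, 0.15, 0.203, 0.237 and 0.258, beside a median of 3.88 over 12566 genes. Oas1a and Ddx58 encode sensors of viral RNA, and Lgals9 encodes galectin-9. Oas1a was at 67.0, 49.4 and 56.5 FPKM in control and 213, 231 and 218 FPKM in TgAPPsweOCN;Ai9, with control 1 and TgAPPsweOCN;Ai9 2 highest, as in most members. This likeness follows from the choice of Oas1a by its distance over the same 6 libraries.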

How the data were processed

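Libraries of tdTomato+ cells were sequenced on a DNBSEQ platform. The submitters' processing notes name mm10, HISAT2 2.0.4, Bowtie2 2.2.5, RSEM 1.2.12 and DESeq2 1.4.5; the annotation is not given in the sources used here. The authors deposited estimated counts, fractional for 13.3% to 14.4% of genes per library, and FPKM. A further table of FPKM, log2 ratios and p-values was not used here.

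Counts were rounded, filtered (filterByExpr), TMM-normalized and tested with edgeR 4.0.16 in R 4.3.3 on genotype, with Benjamini-Hochberg adjustment over 12701 genes. The SE was derived as the absolute log2 fold change over the square root of the quasi-likelihood F statistic. Alternatives were DESeq2 1.42.0, RLE or library-size scaling, 2 other filters, no fold threshold, rounding down, a replicate block, limma 3.58.1 on log2(FPKM + 1) or log2(FPKM + 0.1), each library left out, and summed related copies. The biological coefficient of variation was 9.85%. Between libraries of a genotype, the median squared difference was 2.69 to 6.60 times that of sampling noise (58.0 to 73.2 between genotypes). Library totals were used for this without TMM factors. Tables used Python 3.11.15.

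The members and lists were chosen with earlier results of these data known. Members were all named. Other listed genes could be named where up- or down-regulated or where they were ligands, receptors, STAT or IRF factors, and the rest were counted. The 5 nearest genes had the smallest distance in centred log2 CPM (prior count 2) to the members' mean. Pggt1b, Bglap, Lyz2, Dcn, Lum, Cd79b, Pecam1, Cd3d, Cd3e, Gbp2b and the IRG genes that did not pass were named after their values were seen. Gbp11, Cxcl11, Cd3g, Ncr1 and Rabgdia were listed but not analysed here, and 1 further listed gene is left out of the list counts and is not reported here.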

Additional observations from a re-analysis of the deposited data

How the results depend on the processing

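The 8 members that rose did so with the fold threshold under all 16 alternatives, and no member fell in any. Gbp9 kept its direction in all 16 and its adjusted p in 9, with log2 fold changes from 0.21 (library-size scaling) to 0.56 (without TgAPPsweOCN;Ai9 1). Library-size scaling moved the median of all genes from −0.02 to −0.23 and that of the members to 2.11; limma on FPKM gave 1.87 (with and without a filter) and 2.12 (pseudocount 0.1) for the members. Without each library the members' median ranged from 2.22 to 2.46. Up-regulated genes numbered 1130, against 586, 667 and 589 in the limma fits with a pseudocount of 1, of 0.1 and without a filter, and 4122 with no fold threshold, under which 4007 were lower.

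Among the GTPase, interferon and nearest genes named, the direction turned only for F830016B08Rik and Irgq, neither past the threshold. F830016B08Rik was −0.15 under library-size scaling, −0.041, −0.056 and −0.041 in the limma fits, and −0.12 to 0.28 with each library left out, below 0 without control 2, TgAPPsweOCN;Ai9 2 (−0.063) or TgAPPsweOCN;Ai9 3 (−0.043). Irgq was −0.11 under library-size scaling and −0.090, −0.10 and −0.090 in the limma fits. Beyond the scaling itself, the cause was not tested.

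Same-numbered libraries correlated at 0.013, 0.0066 and 0.14, and not every library correlated best with its own number. The value of 0.14 was the highest of all pairs across genotypes. With 3 libraries in each genotype, these values cannot show whether the numbers mark pairs. With the replicate block, 1115 genes rose and 1147 fell, the 8 members stayed called (median 2.34) and Gbp9 had an adjusted p of 0.0458. Summing related copies, not all of them neighbours, gave log2 fold changes of 2.67 for the chromosome 3 GBPs, 1.17 for the chromosome 5 GBPs, 1.89 for Irgm1, Irgm2 and Igtp, and 1.06 for Iigp1 with 8 other IRG genes of chromosomes 11 and 18. Gbp10 was 0.63 in limma without a filter. The sums of Gbp8 with Gbp9 and of Igtp with Irgm2 were chosen after seeing the data. At this depth, Ifng and Gbp2b could not be compared.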
